A study of Mus musculus with 8 samples.

Results

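Guanylyl cyclase D (GC-D) neurons are an unusual population of sensory neurons in the olfactory mucosa, and 6 genes known from these neurons were followed here: Gucy2d, Cnga3, Pde2a, Car2, Ms4a5 and Ms4a7. Their transcript clusters were picked by gene symbol and not by a measured difference. The 6 genes themselves were chosen with earlier results of these data known. Each of the 6 was represented by 1 transcript cluster, the unit in which the array combines the probe sets of a gene, among 21789 clusters that carry exactly 1 gene symbol. RNA abundance was measured in olfactory mucosa taken on postnatal day 1 from 8 mice of mixed 129 x C57BL/6J background, with 4 knockouts and 4 littermate controls. Knockouts were OmpCre:Emx2(fl/fl), so that Cre recombinase made from the Omp locus could delete both floxed copies of Emx2, which encodes a homeodomain transcription factor. Controls 1 to 3 were OmpCre:Emx2(fl/+), in which 1 copy could recombine, and control 4 was Emx2(fl/fl) with no Cre, so every mouse carried at least 1 floxed Emx2 allele. Omp is active in mature olfactory sensory neurons (OSNs), and activity of the Cre in GC-D neurons was not analysed here.

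Most OSNs detect odorants with odorant receptors and signal through cyclic AMP. GC-D neurons instead use the receptor enzyme guanylyl cyclase D, which makes cyclic GMP when the gut and urinary peptides guanylin and uroguanylin, or bicarbonate formed from carbon dioxide, reach it, and cyclic GMP then opens a cyclic nucleotide-gated channel that contains Cnga3. Their axons end in the necklace glomeruli at the back of the olfactory bulb, and they carry membrane-spanning MS4A proteins as a separate kind of chemoreceptor. Gucy2d is the member that defines these neurons, whereas Pde2a, Car2 and Ms4a7 are known from other cells as well: Ms4a7 from macrophages, Car2 from red blood cells and osteoclasts, and Pde2a from other neurons and endothelium. In whole mucosa, fewer GC-D neurons and less RNA per neuron cannot be told apart.

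Because homeodomain proteins bind sites built around TAAT, the promoters of the gene that names the population and of its MS4A receptors are shown first. They are RefSeq windows of GRCm38.p6, 300 bases long, from 250 bases before the annotated transcription start to 50 bases after it, written 5′ to 3′ on the strand of the gene, with TAAT on either strand in capitals. The Gucy2d window lies at chr7:98440166-98440465 on the + strand, the Ms4a5 window at chr19:11283764-11284063 on the - strand, and the Ms4a7 window shown, the farther upstream of its pair, at chr19:11336097-11336396 on the - strand.
Gucy2d: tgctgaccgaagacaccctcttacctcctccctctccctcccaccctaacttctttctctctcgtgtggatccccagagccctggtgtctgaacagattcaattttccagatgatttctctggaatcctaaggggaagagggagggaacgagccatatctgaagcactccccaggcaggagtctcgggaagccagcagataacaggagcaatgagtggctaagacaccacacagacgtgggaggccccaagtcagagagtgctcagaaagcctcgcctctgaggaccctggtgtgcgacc
Ms4a5: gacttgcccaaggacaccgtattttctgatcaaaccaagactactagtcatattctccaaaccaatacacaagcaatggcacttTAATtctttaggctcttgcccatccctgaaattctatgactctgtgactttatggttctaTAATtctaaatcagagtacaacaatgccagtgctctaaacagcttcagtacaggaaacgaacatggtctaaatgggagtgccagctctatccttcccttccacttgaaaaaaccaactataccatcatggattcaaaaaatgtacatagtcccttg
Ms4a7: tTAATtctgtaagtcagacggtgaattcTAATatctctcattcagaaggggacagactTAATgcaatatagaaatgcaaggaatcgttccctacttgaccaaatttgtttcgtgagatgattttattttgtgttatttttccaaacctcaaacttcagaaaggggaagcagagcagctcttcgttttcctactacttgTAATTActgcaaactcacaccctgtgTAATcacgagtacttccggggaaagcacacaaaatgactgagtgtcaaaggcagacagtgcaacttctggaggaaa

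The Gucy2d window held no TAAT on either strand, the Ms4a5 window held it 2 times and the Ms4a7 window 6 times, counting both strands. In the Ms4a7 window 2 of the 6 overlap in the palindrome TAATTA, whose first base lies 52 bases before the start (position -52). Over all 32851 RefSeq promoter windows of this length, 58.0% held TAAT and 5.29% held TAATTA. The other Ms4a7 window held TAAT 2 times and TAATTA 0 times. The table had 11 windows for 5 of the members, and of these 7 held TAAT, 1 held TAATTA and 0 held TCCCNNGGG or its reverse complement, the core of the site bound by Ebf factors, which 6.56% of all windows held. Car2 was not in the table. A match of letters is a description and shows no binding.

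The 8 arrays had median log2 signals of 8.64 to 8.68, and correlations between arrays ran from 0.985 to 0.996. Control 2 stood apart on the first principal component (32.9, with the others between -11.83 and 6.11; 32.6% of the variance). Omp, the defining marker of mature OSNs, was at 12.56 to 13.43. Emx2 was at 10.83, 10.74, 10.58 and 10.89 in controls 1 to 4 and at 10.25, 10.14, 10.34 and 10.14 in knockouts 1 to 4, so that its groups did not overlap, with a log2 difference of -0.55 ± 0.08 (limma adjusted p = 0.201, exact permutation p = 0.0286, the smallest that 4 against 4 mice allow). All differences below are knockout minus control in log2 signal (n = 4 per group), and ± gives their SE, or the SD where so marked.

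The comparison asked whether mRNAs of GC-D neurons change when Emx2 is deleted through OmpCre. None of the 6 genes passed adjustment over all clusters by limma, and in all 6 the knockouts overlapped the controls. Of the members, 0 reached the adjusted threshold of 0.05, where 0% of the 21789 clusters did, and 0 reached an unadjusted p under 0.05, where 5.17% did. The groups overlapped in every member, against 3.1% of all clusters in which they did not. Gucy2d, Pde2a, Car2, Ms4a5 and Ms4a7 had lower means in the knockouts and Cnga3 a higher one, with differences from -0.18 to 0.02 and a median of -0.05, beside a median of 0.0024 over all clusters.

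**Figure D1:**
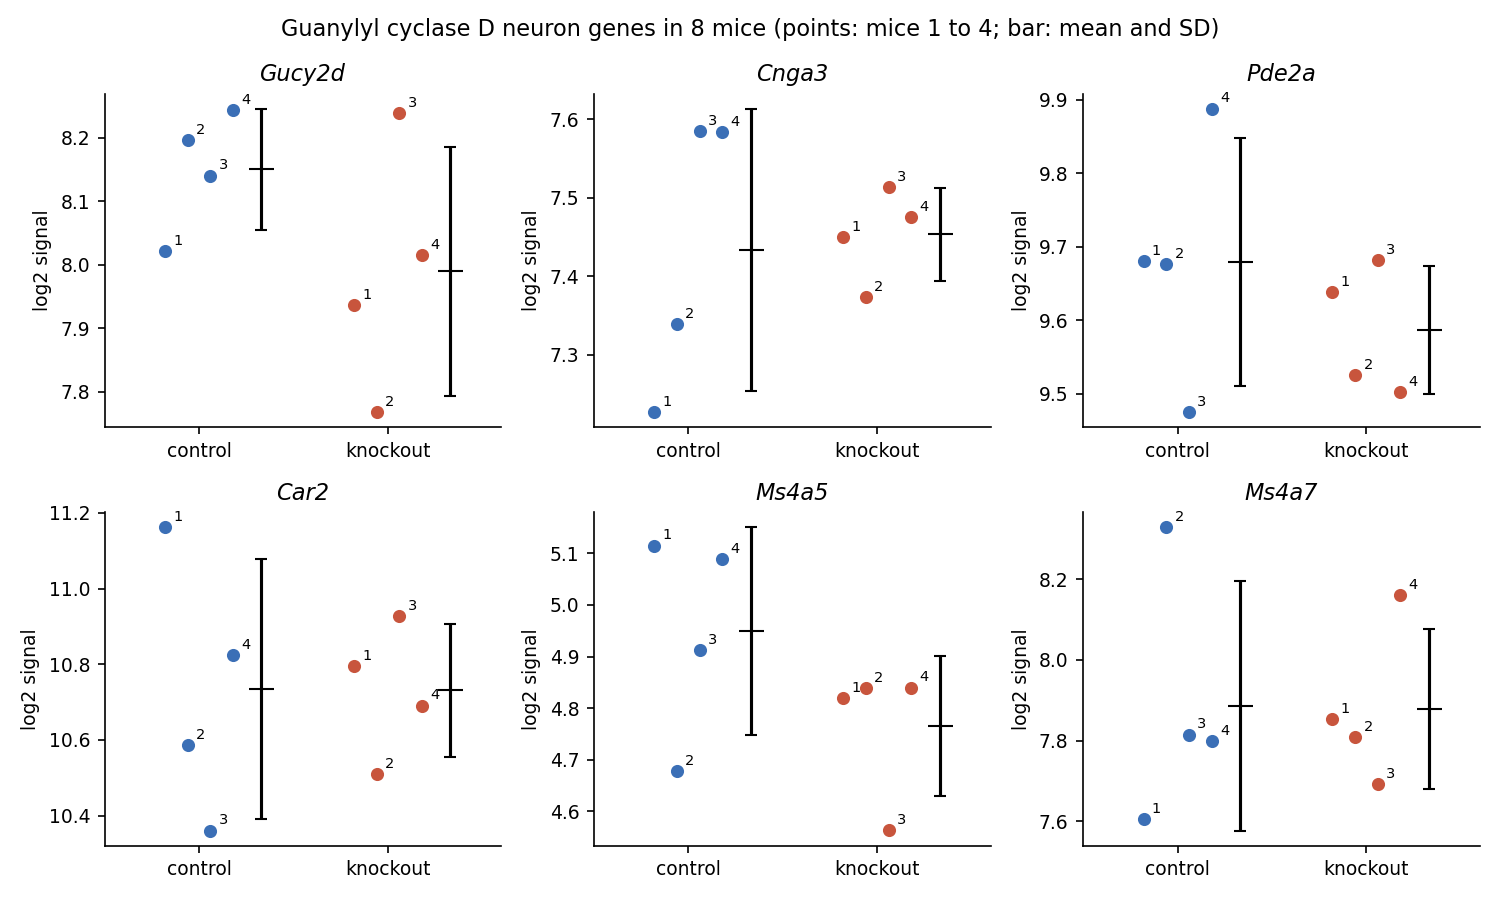
Log2 signal of each GC-D neuron gene (y axis, own range per panel) in controls and knockouts (x axis). Points are mice, numbered 1 to 4 within their group, and bars give the group mean and SD (n = 4). In all 6 panels the groups overlap, with Gucy2d at 8.02 to 8.24 in controls and 7.77 to 8.24 in knockouts.

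Gucy2d encodes the receptor cyclase itself. Its log2 signals were 8.02, 8.20, 8.14 and 8.24 in controls 1 to 4 (8.15 ± 0.10 SD) and 7.94, 7.77, 8.24 and 8.02 in knockouts 1 to 4 (7.99 ± 0.20 SD). Knockouts 1, 2 and 4 lay below every control, knockout 4 only just below control 1, and knockout 3 lay beside control 4, the highest. The difference was -0.16 ± 0.10 (fold 0.895, 95% interval -0.38 to 0.06; limma adjusted p = 0.910; two-sided exact permutation p = 0.200). The difference was within the spread between mice and was not detectable with 4 arrays per group. Without knockout 3 it was -0.24 (limma adjusted p = 0.585), and without knockout 2 it was -0.09.

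By the study's methods mice of both sexes were used, but the labels give the sex of no mouse. The 8 mice also differed in the signal of Y-linked genes, of which 3 were measured (Eif2s3y, Kdm5d and Uty). Their mean log2 signal was 10.53 to 10.72 in controls 2, 3 and 4 and knockout 3, and 7.05 to 8.09 in control 1 and knockouts 1, 2 and 4. Gucy2d was at 8.14 to 8.24 in the first 4 mice and at 7.77 to 8.02 in the others, with no overlap between them. Each of the other members did overlap, for example Cnga3 at 7.34 to 7.59 and 7.23 to 7.48. The share of all clusters without overlap in this split was not computed. With that Y-linked mean in the model, the Gucy2d difference between genotypes was -0.0011 ± 0.07 (limma adjusted p = 1.000), and the slope on that signal was 0.0878 ± 0.0234 log2 units per log2 unit (limma adjusted p = 0.911). Of the 6 members, Gucy2d and Ms4a5 had such a slope at p under 0.05, where 4.5% of all clusters did. Within the mice of high Y-linked signal the knockout lay 0.0451 above the mean of the controls, and within those of low signal the knockouts averaged -0.11 relative to the control. In each set 1 group had 1 mouse, and genotype and Y-linked signal are largely confounded in these 8 mice. The values within each set and the slope were added after the data had been seen.

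Gucy2d also lies close to the engineered locus. In the RefSeq gene table, Omp and Gucy2d lie on chromosome 7 with 3 protein-coding genes between them, and Pde2a follows with 49 protein-coding genes between it and Omp. Control 4 is the 1 mouse labelled as lacking the Cre allele at Omp, and it had the highest signal of both Gucy2d (8.243) and Pde2a (9.89). Knockout 3, which is labelled OmpCre, was nearly as high for Gucy2d (8.238) and was at 9.68 for Pde2a. The Omp signal itself did not set control 4 apart, being 13.28 in control 4 and 13.43 in control 1, which is labelled OmpCre, and 12.56 to 12.91 in the other 6 mice. In control 1 Gucy2d was at 8.02 and Pde2a at 9.68. Without control 4 the difference of Gucy2d was -0.13 and that of Pde2a -0.02. The part of the linked chromosome segment in these values was not tested.

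Cnga3 encodes a subunit of the cyclic GMP-gated channel, best known from cone photoreceptors. Its log2 signals were 7.23, 7.34, 7.59 and 7.58 in controls 1 to 4 (7.43 ± 0.18 SD) and 7.45, 7.37, 7.51 and 7.48 in knockouts 1 to 4 (7.45 ± 0.06 SD). The controls spread on both sides of the knockouts, with controls 1 and 2 below all of them and controls 3 and 4 above. The difference was 0.02 ± 0.09 (fold 1.01, 95% interval -0.18 to 0.22; limma adjusted p = 0.984), and it was -0.05 without control 1.

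Pde2a encodes a phosphodiesterase that cyclic GMP activates and that degrades cyclic nucleotides. Its log2 signals were 9.68, 9.68, 9.47 and 9.89 in controls 1 to 4 and 9.64, 9.53, 9.68 and 9.50 in knockouts 1 to 4. Control 4 was the highest mouse and control 3 the lowest, with the 4 knockouts between them. The difference was -0.09 ± 0.09 (fold 0.938, 95% interval -0.29 to 0.10; limma adjusted p = 0.914), and it was -0.16 without control 3.

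Car2 encodes carbonic anhydrase II, which turns carbon dioxide into bicarbonate and so takes part in the carbon dioxide response of GC-D neurons. Its log2 signals were 11.16, 10.59, 10.36 and 10.82 in controls 1 to 4 (10.73 ± 0.34 SD) and 10.80, 10.51, 10.93 and 10.69 in knockouts 1 to 4 (10.73 ± 0.18 SD). Again the controls held both the highest mouse and the lowest. The difference was -0.0026 ± 0.16 (fold 0.998, 95% interval -0.38 to 0.37; limma adjusted p = 1.000), and it was 0.14 without control 1.

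Car2 is abundant in red blood cells, and control 1, its highest mouse, also had the highest mean of 7 measured erythroid markers (8.02, with the other mice at 7.23 to 7.71). Of the 7 markers, 4 were highest in control 1, among them Alas2, the first enzyme of haem synthesis in red cells, at 10.49 (8.42 to 10.31 in the others) and Slc4a1, the anion exchanger of red cells, at 10.12 (7.93 to 9.09). The other 3 were highest in knockout 2, among them Klf1, a transcription factor of red cell precursors, which was at 7.05 in control 1 and 7.23 in knockout 2. Over the 8 mice Car2 and the erythroid mean had Pearson's r = 0.675 (exact permutation p = 0.0641, adjusted p = 0.0962) and Spearman's rho = 0.691 (exact permutation p = 0.0694, adjusted p = 0.104), and r was 0.650 without the 2 mice farthest from the median. With the mean of 10 osteoclast markers, highest in knockout 3 (9.31, with the others at 8.86 to 9.10), Car2 had r = 0.539 (exact permutation p = 0.167, adjusted p = 0.167) and rho = 0.619 (exact permutation p = 0.115, adjusted p = 0.115), and r = 0.485 without the farthest 2. Control 1 also had the highest mean of 24 measured mature OSN markers (11.46, with the other mice at 11.12 to 11.37). Of these markers 14 were highest in control 1. Control 3, the lowest mouse for Car2, had the lowest mature OSN mean (11.12). The mean of the cyclic AMP cascade genes of OSNs was also highest in control 1 (12.05) and lowest in control 3 (11.70). A correlation of Car2 with the mature OSN or cascade mean was not computed, so the list that Car2 followed most closely is not known. The part of red cells, osteoclasts and mature OSNs in the Car2 values was not tested further.

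Ms4a5 and Ms4a7 encode MS4A proteins and lie on chromosome 19 with 1 protein-coding gene between them. The floxed gene Emx2 is on the same chromosome, with 425 protein-coding genes between it and Ms4a7. Control 4 carries both copies of the floxed allele, as the knockouts do, but no Cre by its label, and it had Ms4a5 at 5.09 and Ms4a7 at 7.80. The part of the linked segment was not tested. Ms4a5 was at 5.12, 4.68, 4.91 and 5.09 in controls 1 to 4 (4.95 ± 0.20 SD) and at 4.82, 4.84, 4.56 and 4.84 in knockouts 1 to 4 (4.77 ± 0.14 SD). Controls 1, 3 and 4 were above every knockout, and control 2 was below all of them but knockout 3. The difference was -0.18 ± 0.11 (fold 0.880, 95% interval -0.43 to 0.06; limma adjusted p = 0.910; two-sided exact permutation p = 0.200). Without control 2 it was -0.27 (limma adjusted p = 0.923), without knockout 3, which lay apart from the other knockouts, -0.12 (limma adjusted p = 0.860), and with the Y-linked mean in the model -0.33 (limma adjusted p = 1.000). The slope of Ms4a5 on that signal was -0.0819 ± 0.0319 (limma adjusted p = 0.998). Of all clusters 1.46% had a lower mean signal than Ms4a5, which puts it at the dim end of the array, and no detection calls were used here to say whether it stood above background.

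Ms4a7 was at 7.61, 8.33, 7.82 and 7.80 in controls 1 to 4 (7.89 ± 0.31 SD) and at 7.85, 7.81, 7.69 and 8.16 in knockouts 1 to 4 (7.88 ± 0.20 SD). Control 2 was the highest mouse and control 1 the lowest. The difference was -0.0083 ± 0.16 (fold 0.994, 95% interval -0.37 to 0.35; limma adjusted p = 0.998), and without control 2 it was 0.14.

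The Ms4a7 signal was highest where markers of myeloid cells were highest. The mean of 18 such markers, all measured and none of them an MS4A gene, was 9.71 in control 2 and 8.81 to 9.07 in the other 7 mice. Of the 18 markers, 14 were highest in control 2. There the monocyte receptor gene Cd14 stood at 10.44 (7.93 to 8.27 in the others), Tyrobp, a signalling adaptor of myeloid cells, at 10.96 (9.69 to 9.93), and the complement gene C1qb at 10.16 (9.41 to 9.97). The other 4 peaked in knockout 4 or knockout 2, with the tissue macrophage receptor genes Cd163 at 6.84 in control 2 and 7.06 in knockout 4, and Mrc1 at 9.26 in control 2 and 9.64 in knockout 4. Over the 8 mice Ms4a7 and the myeloid mean had Pearson's r = 0.887 (exact permutation p = 5.21e-04, adjusted p = 0.00156) and Spearman's rho = 0.905 (exact permutation p = 0.00456, adjusted p = 0.0137), and r was 0.864 without the 2 mice farthest from the median. This relation and those of Car2 were a family of 3, looked at after the values had been seen. The adjustment covers these 3 only, and not the other pairings of members and lists from which they were picked. The share of the Ms4a7 signal that came from GC-D neurons was not tested.

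**Figure D2:**
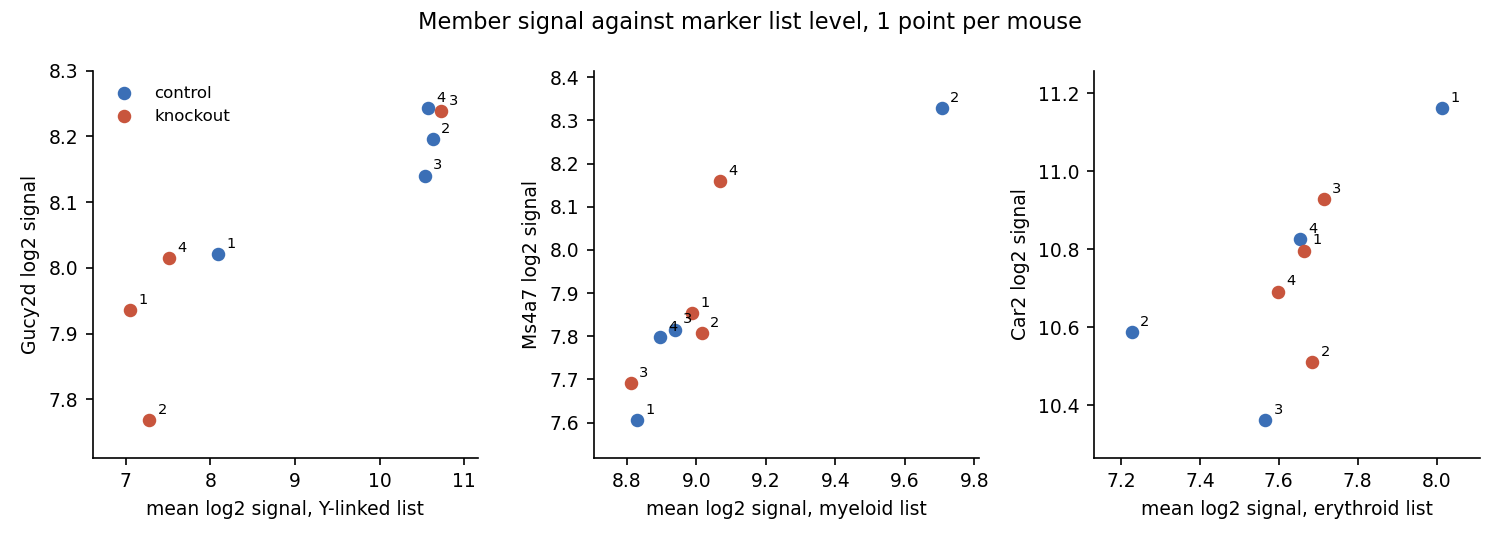
Log2 signal of Gucy2d, Ms4a7 and Car2 (y axes) against the mean log2 signal of the Y-linked, myeloid and erythroid lists (x axes), 1 point per mouse, numbered within its group. Gucy2d lies at 8.14 to 8.24 in the 4 mice of high Y-linked signal and 7.77 to 8.02 in the others, control 2 is highest for both Ms4a7 (8.33) and the myeloid list (9.71), and control 1 for both Car2 (11.16) and the erythroid list (8.02).

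The members were also compared with each other across mice. Of their 15 pairs, 8 had a positive and 7 a negative Pearson's r over the 8 mice, from -0.471 (Car2 and Ms4a7) to 0.574 (Pde2a and Car2), and the sign of 5 turned without the 2 mice farthest from the median. No pair passed adjustment over the 15 (lowest adjusted p = 0.864 for r and 0.419 for rho, exact permutation tests). For Pde2a and Car2, r = 0.574 (exact permutation p = 0.135, adjusted p = 0.864) and rho = 0.786 (exact permutation p = 0.0279, adjusted p = 0.419), with r = 0.587 without the farthest 2. For Gucy2d and Cnga3, the receptor cyclase and the channel of the same pathway, r = 0.428 (exact permutation p = 0.292, adjusted p = 0.864) and rho = 0.429 (exact permutation p = 0.299, adjusted p = 0.898), with r = 0.236 without the farthest 2. For the MS4A pair, r = -0.384 (exact permutation p = 0.346, adjusted p = 0.864) and rho = -0.381 (exact permutation p = 0.360, adjusted p = 0.8997), with r = -0.709 without the farthest 2.

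The genes whose pattern over the 8 mice was most like that of Gucy2d were Pde12 (Pearson's r = 0.983), Bcl2l1 (r = 0.965) and Mllt6 (r = 0.961). These are the highest of 21788 correlations, of which 65 were at least 0.9, and were chosen for their height, so that no p is given. None of the other members was among the 3.

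Around the members, 16 of 18 listed genes of the MS4A family and its relatives were measured, with 6 higher and 10 lower in the knockouts and a median difference of -0.04. None reached p under 0.05. The smallest p belonged to Ms4a4d (0.11 ± 0.07, limma adjusted p = 0.910, exact permutation p = 0.171). The mean of this list was 7.80 in control 2 and 7.35 to 7.52 in the other mice, as for the myeloid markers, and Ms4a6d, a gene of macrophages, was at 9.64 in control 2 and 7.93 to 8.50 elsewhere. Without control 2, 9 of the 16 were higher (median 0.01).

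Guanylin and uroguanylin, the peptide ligands, are made by Guca2a and Guca2b, which differed by 0.10 ± 0.09 and -0.06 ± 0.06. Together with other guanylyl cyclases and neuronal calcium sensors they formed a list of which 17 of 18 were measured, 10 higher and 7 lower (median 0.05). By limma at unadjusted p under 0.05, 1 was higher and 1 was lower, where 2.62% of all clusters were higher and 2.55% lower. Vsnl1, which encodes the calcium sensor visinin-like 1, was at 12.13, 12.14, 11.96 and 12.08 in controls 1 to 4 and 11.79, 11.76, 11.94 and 11.77 in knockouts 1 to 4. Every knockout was below every control, with knockout 3 close to control 3, and the difference was -0.26 ± 0.06 (fold 0.832, limma adjusted p = 0.567, exact permutation p = 0.0286). Gucy1b1, the beta subunit of the nitric oxide receptor cyclase, differed by 0.23 ± 0.10 (limma adjusted p = 0.910, exact permutation p = 0.0857) with overlapping groups, and by 0.14 with the Y-linked mean in the model. Neither passed adjustment. Gucy2e, the retinal relative of Gucy2d, differed by -0.05 ± 0.04, and Gucy1b2, known from another group of sensory neurons in the mucosa, by 0.04 ± 0.12.

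All 19 listed channel subunits, cyclic GMP kinases and phosphodiesterases were measured, with 13 higher and 6 lower (median 0.03). The phosphodiesterases Pde3a (0.28 ± 0.09, limma adjusted p = 0.876, exact permutation p = 0.0571) and Pde3b (0.22 ± 0.09, limma adjusted p = 0.910, exact permutation p = 0.0857), both inhibited by cyclic GMP, were higher at unadjusted p under 0.05, and no gene of the list was lower at that level. Of all clusters 2.62% were higher and 2.55% lower at that level. Pde3a was at 8.15 to 8.41 in the controls and at 8.59, 8.62, 8.27 and 8.58 in knockouts 1 to 4, with knockout 3 alone inside the range of the controls. Cngb3, the channel subunit that joins Cnga3 in cones, differed by 0.15 ± 0.10 (limma adjusted p = 0.910).

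Of 18 carbonic anhydrases and bicarbonate transporters 17 were measured, 8 higher and 9 lower (median -0.01), with 2 higher and 1 lower at unadjusted p under 0.05. Of all clusters 2.62% were higher and 2.55% lower at that level, and 3.1% had groups without overlap. Car5b, a mitochondrial carbonic anhydrase, averaged 8.97 ± 0.02 (SD) in the controls and was at 9.24, 9.15, 9.05 and 9.25 in knockouts 1 to 4. Its groups did not overlap (0.20 ± 0.05, fold 1.15, limma adjusted p = 0.739, exact permutation p = 0.0286). With the Y-linked mean in the model the Car5b difference was 0.145. Knockout 3, the 1 knockout of high Y-linked signal, was the knockout nearest to the controls. Car11, a carbonic anhydrase-related protein without the enzyme activity, was at 10.48 to 10.53 in the controls and 10.38, 10.35, 10.11 and 10.31 in knockouts 1 to 4. Its groups did not overlap in the other direction (-0.21 ± 0.06, fold 0.863, limma adjusted p = 0.793, exact permutation p = 0.0286). Car10, another relative without activity, differed by 0.39 ± 0.14 (fold 1.31, limma adjusted p = 0.910, exact permutation p = 0.0857) with overlap, and by 0.22 with the Y-linked mean in the model. Scaled to mature OSN markers, Car11 was at -0.14. None of these passed adjustment over all clusters.

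**Figure D3:**
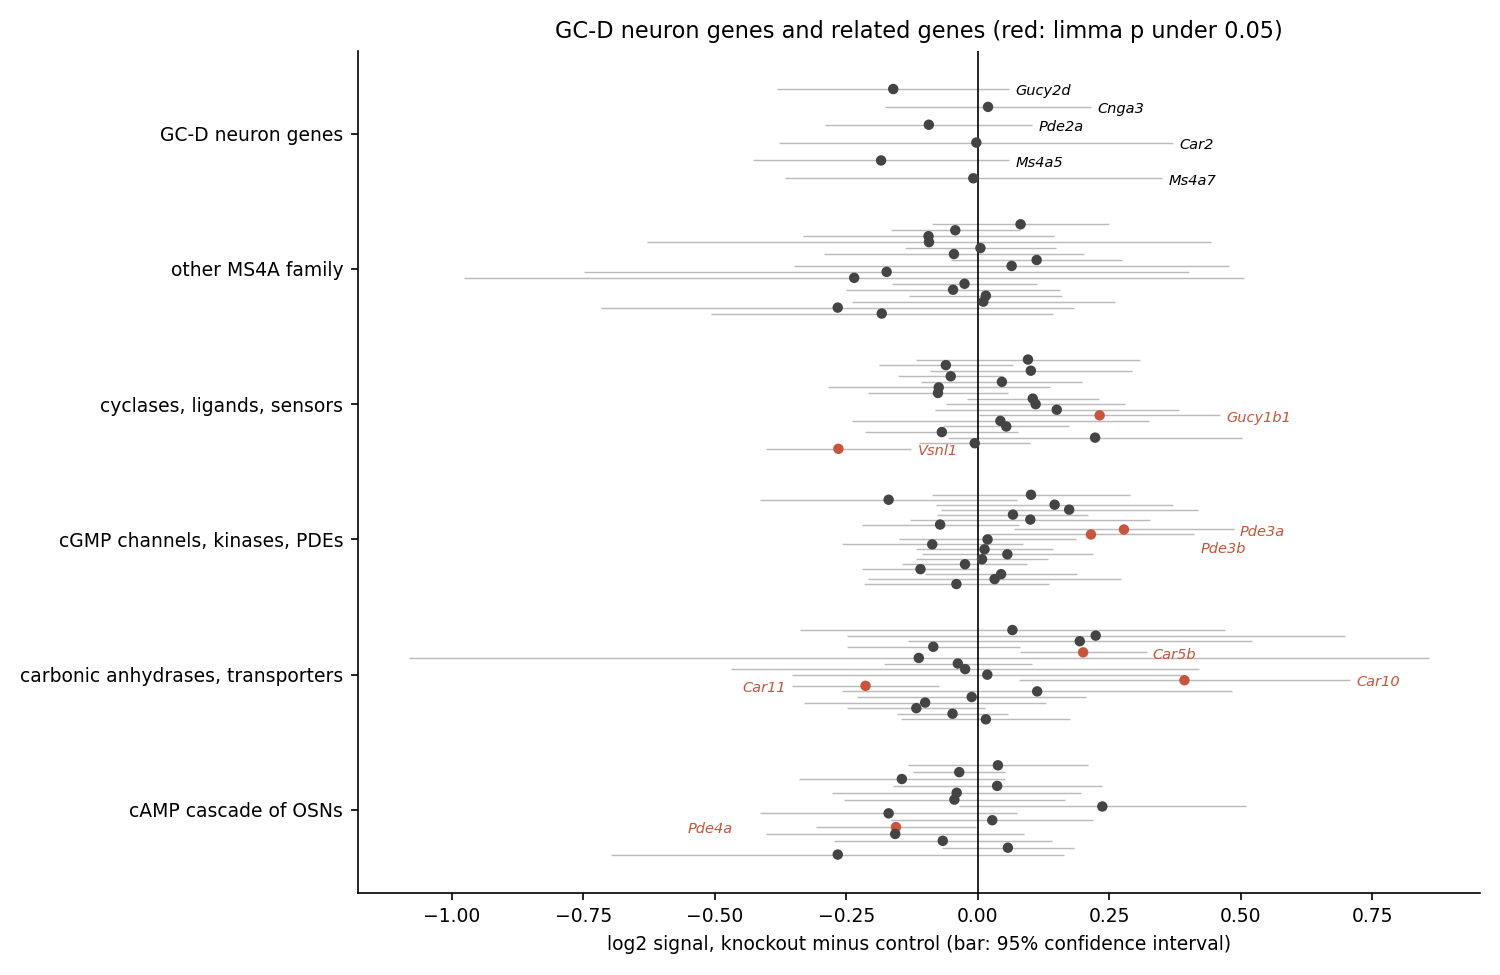
Log2 signal of knockout minus control (x axis) for each GC-D neuron gene and for the measured genes of 5 related lists (y axis), with 95% confidence intervals. Red points are at a limma unadjusted p under 0.05, and 0 of the 6 members are among them, while Vsnl1 (-0.26), Car11 (-0.21), Car5b (0.20), Car10 (0.39), Pde3a (0.28), Pde3b (0.22), Gucy1b1 (0.23) and Pde4a (-0.16) are.

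The cyclic AMP cascade of the other OSNs, which GC-D neurons lack in large part, gave 5 higher and 9 lower of 14 genes (median -0.04). This list also counted Omp, whose locus carries the Cre, among the lower genes (-0.27 ± 0.19). The cascade genes Omp, Gnal, Adcy3, Cnga2, Cnga4, Cngb1, Ano2, Pde1c, Pde4a and Gng13 were also among the mature OSN markers used for scaling. The cascade and marker counts are therefore not separate readings. The gene of smallest p in the cascade list was the phosphodiesterase Pde4a (-0.16 ± 0.07, limma adjusted p = 0.910, exact permutation p = 0.0571). Scaled to mature OSN markers it was at -0.08. A difference between the GC-D genes and this cascade was not tested. Of 24 measured mature OSN markers 7 were higher and 17 lower (median -0.04). At limma unadjusted p under 0.05, 1 was higher and 5 were lower, where 2.62% of all clusters were higher and 2.55% lower. Those of smallest p were the calcium-binding protein gene S100a5 (-0.58 ± 0.12, limma adjusted p = 0.459, exact permutation p = 0.0286), Cidea (-0.43 ± 0.11, limma adjusted p = 0.660, exact permutation p = 0.0286) and the neuropeptide gene Cartpt (0.48 ± 0.12, limma adjusted p = 0.673, exact permutation p = 0.0286). With each array scaled to the mean of these markers, the median of all clusters moved from 0.0024 to 0.0794, and the 6 members had a median of 0.0264, with Gucy2d at -0.08, Pde2a at -0.02, Ms4a5 at -0.11, Cnga3 at 0.10, Car2 at 0.07 and Ms4a7 at 0.07. Under this scaling 3 members were higher and 3 lower, where 18244 of the 21789 clusters were higher. The scaling takes the same value from every cluster of an array, so it moved every difference by the same amount. The place of the members relative to all clusters could therefore not change.

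Markers of the other cells that can hold member transcripts also differed between mice. Of the osteoclast markers 9 of 10 were higher (median 0.12, 2 at unadjusted p under 0.05, where 2.62% of all clusters were higher), with the bone-resorbing protease Ctsk at 0.35 ± 0.12 (limma adjusted p = 0.910, exact permutation p = 0.114) and the proton pump subunit Atp6v0d2 at 0.27 ± 0.11 (limma adjusted p = 0.910, exact permutation p = 0.0571). Endothelial markers were higher in 10 of 10 (median 0.11, 0 at unadjusted p under 0.05), their list means running from 9.27 to 9.37 over the controls and from 9.07 to 9.64 over the knockouts, and their gene of smallest p was the receptor Tie1 (0.12 ± 0.07, exact permutation p = 0.171). Erythroid markers were 5 higher and 2 lower (median 0.0032), myeloid markers 7 higher and 11 lower (median -0.03), B cell markers 0 higher and 5 lower (median -0.10) and glial markers 6 higher and 2 lower (median 0.05), none at p under 0.05. Their genes of smallest p were Alas2 (0.26 ± 0.42), Cd163 (0.10 ± 0.06), Vpreb1 (-0.13 ± 0.10) and Frzb (0.20 ± 0.12). The part of these cells in the values of Car2, Pde2a and Ms4a7 was not tested beyond the values above.

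**Figure D4:**
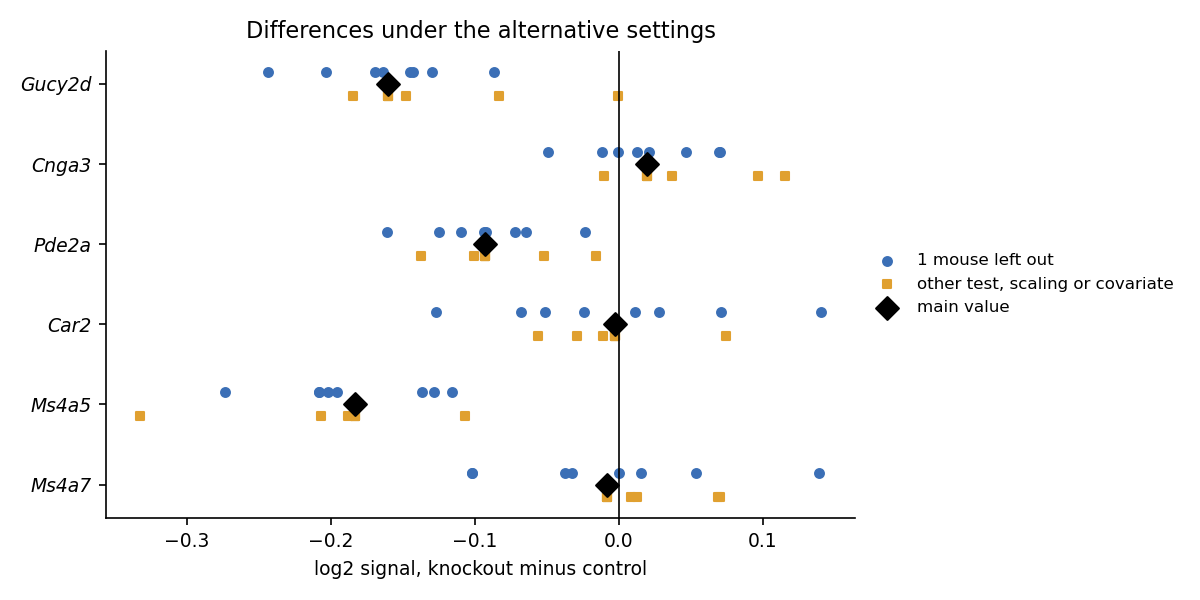
Log2 signal of knockout minus control (x axis) for each GC-D neuron gene (y axis), as reported (diamonds), with 1 mouse left out (circles) and with another test, scaling, filter or covariate (squares). Gucy2d, Pde2a and Ms4a5 stay at or below 0 in every setting drawn (Gucy2d from -0.24 to -0.0011), while Cnga3, Car2 and Ms4a7 fall on both sides of 0.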

How the data were processed

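The authors prepared total RNA with TriReagent and hybridised it to Affymetrix whole-transcript mouse gene arrays. As deposited, each transcript cluster has a log2 signal, made with Affymetrix Expression Console (submitters' processing notes, no version). The normalization algorithm and genome build are not given in the sources used here. Values ran from 2.65 to 14.86 with nearly equal array medians, so they were used as deposited. Pooling is not mentioned, and each array was taken as 1 mouse. Per the study's methods, the litters that gave knockouts also gave controls, so some mice share a litter, but the labels tie no mouse to a litter. The tests therefore treat the 8 mice as unrelated, and their p-values measure only the spread between these samples. Replicate numbers follow accession order and pair no samples.

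Of 35557 clusters, 21789 had exactly 1 gene symbol in the platform annotation, 1621 had several and 12147 were unnamed here. Current symbols were looked up by Entrez identifier in the RefSeq table of GRCm38.p6 (21698 found, 0 changed), and 2 listed genes were matched through newer symbols (Gucy1a1, Gucy1b1). For a gene with several clusters the brightest was used.

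Knockouts were compared with controls by limma 3.58.1 in R 4.3.3 (lmFit, eBayes, two-sided), with Benjamini-Hochberg adjustment over the 21789 clusters at 0.05, and checked on simulated data. Exact permutation tests used the 70 assignments of the 8 mice (smallest possible p 0.0286) for group differences and all pairings for correlations. Alternatives were the methods' t-test, the exact test, scaling to mature OSN markers, quantile normalization, a filter on dim clusters, all clusters, array weights, a Y-linked covariate, a variance trend and leaving out each mouse. The methods' own list of mature OSN mRNAs was not used here. Named genes were the members, Emx2, in each list up to 3 genes at unadjusted p under 0.05 or the gene of smallest p, and the 3 clusters most like Gucy2d. Guca2a, Guca2b, Gucy2e, Gucy1b2, Cngb3, Ms4a6d, Omp and the markers given for single mice were named outside this rule, after their values were seen. The members and lists were chosen with earlier results of these data known.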

Additional observations from a re-analysis of the deposited data

Results flagged for a closer look

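Among 27 named genes, each group of 4 mice was searched for a mouse far from the other 3 (Dixon's test at 95%, which chance alone meets in about 1 of 20 groups). Of 54 groups, 5 held such a mouse, and 4 of these were knockout 3. Ms4a5 was at 4.56 in knockout 3, with the nearest knockout at 4.82. Vsnl1 was at 11.94 there, with the nearest knockout at 11.79, and Pde3a at 8.27, with the nearest at 8.58. The Y-linked gene Eif2s3y was at 11.33 in knockout 3, with the nearest knockout at 7.75, and at 8.61 in control 1, with the nearest control at 11.12. Knockout 3 and control 1 are thus the mice whose Y-linked signal departs from the rest of their group.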

How the results depend on the processing

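None of the 6 members passed adjustment under any alternative that was run, and Gucy2d, Pde2a and Ms4a5 kept a lower mean in the knockouts except where stated. The number of arrays, 4 per group, limits the precision. Leaving out each mouse in turn gave differences of -0.0493 to 0.0703 for Cnga3, -0.127 to 0.140 for Car2, -0.102 to 0.139 for Ms4a7 and -0.109 to 0.582 for Alas2, so that each changed sign. Cnga3 was at -0.0105 with array weights. Scaling to mature OSN markers gave 0.0744 for Car2 and 0.0687 for Ms4a7, and Ms4a7 was at 0.0083 after quantile normalization, 0.0705 with array weights and 0.0127 with the Y-linked covariate. Within the mice of high Y-linked signal, a split chosen after seeing the data, the difference was 0.0451 for Gucy2d, 0.0027 for Pde2a and 0.337 for Car2, and within those of low signal it was 0.335 for Ms4a7. The count of members lower at unadjusted p under 0.05, 0 as reported, was 1 with the Y-linked covariate (Ms4a5) and 0 to 1 when each mouse was left out, namely Ms4a5 without control 2 and Gucy2d without knockout 3. Scaling to mature OSN markers moved the genes higher in the knockouts from 6 to 10 in the MS4A list, 10 to 16 among cyclases, ligands and sensors, 5 to 9 in the cyclic AMP cascade, 7 to 14 among mature OSN markers and 0 to 2 among B cell markers. This scaling moved every difference up by the same amount, so these counts could not fall. The mature OSN markers, several of them cascade genes, set that amount themselves. Leaving out control 2 moved the genes higher in the knockouts from 7 to 15 among myeloid and from 5 to 0 among erythroid markers. Over all clusters the calls at adjusted p under 0.05 were 0 in the limma fit reported, with 1126 at unadjusted p under 0.05, and 4 under OSN scaling, 2 above the median signal, 5 with array weights and 1 without control 3. Several related genes at unadjusted p under 0.05 lost it: under OSN scaling Vsnl1 (-0.19), Car11 (-0.14) and Pde4a (-0.08), and with the Y-linked covariate Gucy1b1 (0.14), Pde3a (0.19), Car10 (0.22), Pde4a (-0.13), Ctsk (0.35) and Atp6v0d2 (0.26). Gucy1b1, Pde3b, Car10, Pde4a, Ctsk and Atp6v0d2 also lost it without some of the mice. By the methods' t-test Gucy1b1, Pde3b, Pde4a and Atp6v0d2 lost it, and by the exact permutation test these and Pde3a, Car10 and Ctsk. With all clusters Gucy1b1 and Pde4a lost it, with array weights Pde3b, and with a variance trend Gucy1b1. The causes were not tested. Each member had 1 cluster, so another cluster of the gene could not be tried. No paired analysis was possible because the labels give neither shared replicate numbers nor litters.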
